A study of Mus musculus with 10 samples.

Results

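The miR-23/27/24 clusters are a pair of paralogous miRNA loci, and their 3p arms were read here as 5 of the 1892 miRNAs on a mouse array: mmu-miR-23a-3p, mmu-miR-23b-3p, mmu-miR-24-3p, mmu-miR-27a-3p and mmu-miR-27b-3p, chosen by name. None of the 5 passed the test between T-C cell and Control cell samples, and their differences, T-C cell minus Control cell, lay between −0.17 and −0.08 on a log2 scale. In the miR-23 and miR-27 pairs, the signal ratio of the chromosome 8 to the chromosome 13 paralog did not pass its test either. Signal shared between the probes of a pair was not measured, so this is no ratio of the clusters themselves. RNA came from 5 samples titled T-C cell (source written as Col-/- or Col -/-) and 5 titled Control cell (source written as Control Col), all from male mice, described as sle liver and grown by a mouse liver cell culture protocol. The protocol text, the same for every sample, states that each dish, holding 100000 T-C cells, received 0.5 mg TN-CF over 24 hours, and adds a control, while the series text writes TB-CF. The abbreviations are not spelled out in the labels, which also do not say whether the Control cell samples also got the agent, or whether the 5 samples of a group were separate animals or cultures. Treatment and source therefore cannot be told apart, and p-values reflect only how much these samples vary, and that variation may be technical.

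A miRNA is a short RNA that guides the silencing machinery to messenger RNAs, mainly through its seed, bases 2 to 8 from the 5′ end. Each cluster is transcribed as a single precursor RNA that is cut into a miR-23, a miR-27 and a miR-24 hairpin, and the 3p arm of each is usually the abundant product. miR-27 is known for repressing regulators of fat storage, among them the adipocyte factor Pparg, miR-23 for repressing glutaminase in human cells, and miR-24 for repressing cell cycle and apoptosis genes.

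The 5 target sequences, as the array files give them, are shown with the seed in capitals, because the clusters can be told apart only outside it.
miR-23a-3p: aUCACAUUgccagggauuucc
miR-23b-3p: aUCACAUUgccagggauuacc
miR-27a-3p: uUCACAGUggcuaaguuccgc
miR-27b-3p: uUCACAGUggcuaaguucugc
miR-24-3p: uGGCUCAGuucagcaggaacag
The RefSeq table (GRCm38.p6) had mature entries for 4 of the 5, all with the same letters. Counted from 1 at the 5′ end, miR-23a-3p and miR-23b-3p differ by U19A, and miR-27a-3p and miR-27b-3p by C19U. The miR-23 and miR-27 seeds differ from each other at 1 of 7 bases. miR-24-3p has the same sequence in both clusters, so its signal cannot be divided between them.

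In RefSeq's GRCm38.p6 positions, Mir23a (84208518 to 84208592), Mir27a (84208672 to 84208758) and Mir24-2 (84208815 to 84208921) lie within 404 bases on the plus strand of chromosome 8. In GENCODE M21 the Mir23a and Mir27a hairpins lie outside other genes, and the last 2 bases of Mir24-2 overlap an exon of the lincRNA gene Gm26532. On the plus strand of chromosome 13, Mir23b (63300484 to 63300557), Mir27b (63300712 to 63300784) and Mir24-1 (63301208 to 63301275) lie within 792 bases, inside the protein-coding gene 2010111I01Rik. Mir23b is intronic there, while Mir27b and Mir24-1 fall within exons of at least 1 transcript of that gene, and all 3 lie in introns of Fancc on the other strand.

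The arrays differed in background before any comparison. The mean of the 16 blank spots lay between 55.0 and 228 intensity units, a linear scanner brightness, and the limit of detection, the blank mean plus 3 SD, between 64.0 and 474. Between 189 and 1314 miRNAs exceeded it per array, with the fewest on T-C cell replicate 3 and the most on Control cell replicate 5. The array numbers in the file headers do not interleave between the groups, and the labels do not explain them. The hepatocyte marker miR-122-5p exceeded the limit on 1 of 10 arrays (T-C cell replicate 1), so on the other 9 this marker of the labelled tissue was not above background, and 3 of the 4 hepatocyte markers were above it on at least 5 arrays. The summed intensity of the 4 blood markers on the array under the listed names was 2728 to 5232 on T-C cell arrays and 1953 to 2728 on Control cell arrays, and its part in the values below was not tested. That sum leaves out miR-142-3p and miR-142-5p, listed as miR-142a but named without the letter on the array. Their mean intensities were 329 and 403 on T-C cell arrays against 202 and 239 on Control cell arrays (limma adjusted p = 0.463 and 0.368). Of the fibroblast and smooth muscle markers, 5 of 5 were above the limit on at least 5 arrays. Their sum was 30245.6 to 56376 on T-C cell arrays and 37469 to 44972.4 on Control cell arrays. Hepatocyte markers summed to 19803.5 to 34105 and 21546 to 33858 in the same order. Epithelial markers, 5 of 5 above the limit, summed to 20034 to 33955 and 19430 to 33905. Muscle markers, 3 of 3 above it, summed to 1855 to 2859 and 2608 to 2998. The blood sums met only at their ends, with the lowest T-C cell sum at 2727.67 and the highest Control cell sum at 2727.75. The sums of the other classes, endothelial markers included, overlapped more widely between groups.

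All 5 members were bright on every array, between 4.36 and 184 times the limit of detection and between 9th and 59th in brightness among 1892 miRNAs. Of their 2 spots, the second listed was at 0.979 to 1.20 times the first and brighter in 48 of 50 pairs. On the normalized scale, log2(intensity + 50) after cyclic loess, a method that removes intensity-dependent differences between arrays, the order was the same on 10 of 10 arrays from miR-24-3p downward: miR-24-3p above miR-27b-3p above miR-27a-3p. On T-C cell replicate 5 miR-24-3p exceeded miR-27b-3p by only 0.0080, and before normalization its intensity was the lower (3959.8 against 4001). The miR-23 pair stood above miR-24-3p on all 10 arrays, and miR-23a-3p was above miR-23b-3p on 3 of them. Brightness also depends on the probe, so this is an order of signals and not of molecules.

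**Figure D1:**
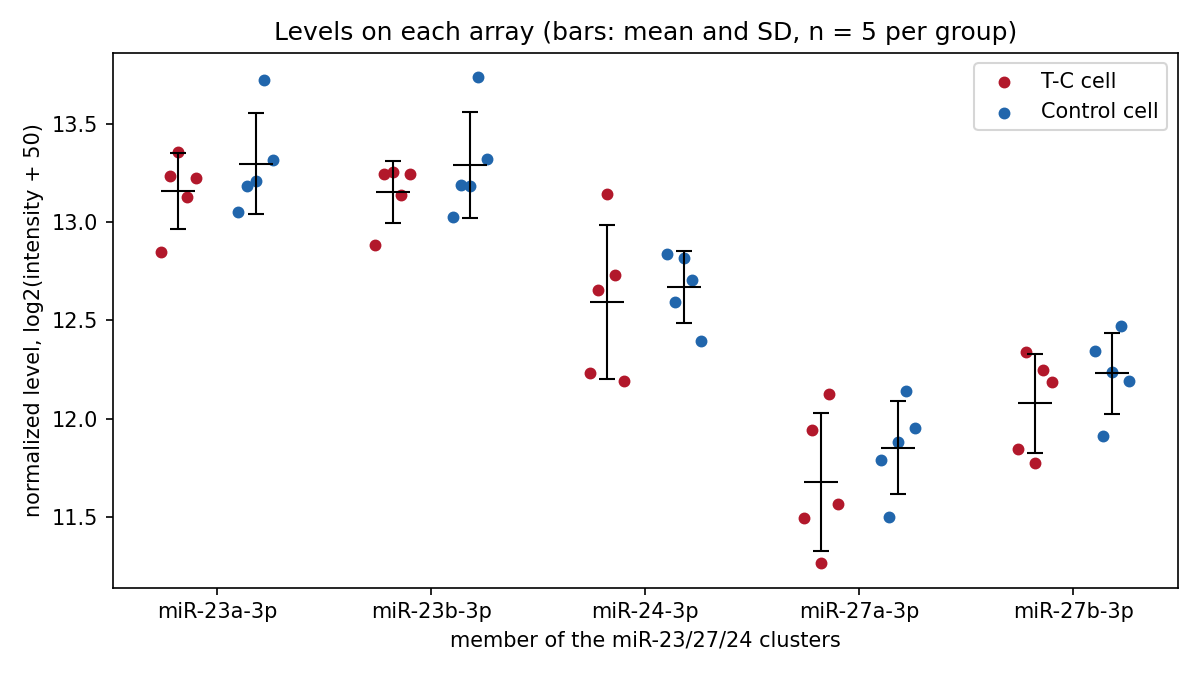
Normalized level, log2(intensity + 50), of each member on every array, with T-C cell samples in red and Control cell samples in blue; black bars are the mean and SD of 5 arrays. The groups overlap for all 5 members, and the miR-23 pair lies highest and miR-27a-3p lowest.

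mmu-miR-23a-3p had intensities of 7667, 10489.5, 9751, 12225 and 7967 in T-C cell replicates 1 to 5, against 9809.5, 8486, 9624, 13722 and 11768 in Control cell replicates 1 to 5. Control cell replicate 4 was the brightest and T-C cell replicate 1 the dimmest, and the groups overlapped. The normalized level was 13.16 ± 0.19 on T-C cell arrays and 13.30 ± 0.26 on Control cell arrays (SD, n = 5 each). The log2 difference was −0.14 (SE 0.16, 95% interval −0.49 to 0.21, limma adjusted p = 0.731 over 476 miRNAs), a ratio of 0.908 with an interval from 0.714 to 1.15.

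mmu-miR-23b-3p, its counterpart on chromosome 13, had intensities of 7871, 10533, 9069.9, 12306 and 8079 in T-C cell replicates 1 to 5, against 9629, 8510.3, 9437, 13835 and 11764 in Control cell replicates 1 to 5. The same arrays were highest and lowest as for miR-23a-3p, and the groups overlapped. The normalized level was 13.15 ± 0.16 on T-C cell arrays and 13.29 ± 0.27 on Control cell arrays (SD, n = 5 each), with a log2 difference of −0.14 (SE 0.16, 95% interval −0.48 to 0.20, limma adjusted p = 0.731). On the linear scale the interval ran from 0.717 to 1.15.

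mmu-miR-27a-3p had intensities of 3587, 3797, 2066, 5915 and 2621.5 in T-C cell replicates 1 to 5, against 3866, 2632, 3815, 4349 and 4171 in Control cell replicates 1 to 5. Both the lowest intensity (T-C cell replicate 3) and the highest (T-C cell replicate 4) were in the T-C cell group, which spanned the Control cell intensities. After normalization the highest level was on Control cell replicate 4 (12.14, against 12.13 on T-C cell replicate 4). The normalized level was 11.68 ± 0.35 on T-C cell arrays and 11.85 ± 0.24 on Control cell arrays (SD, n = 5 each), with a log2 difference of −0.17 (SE 0.19, 95% interval −0.59 to 0.24, limma adjusted p = 0.727). The ratio was 0.887, with an interval from 0.667 to 1.18.

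mmu-miR-27b-3p had intensities of 4379, 5158, 3019, 6481 and 4001 in T-C cell replicates 1 to 5, against 5769, 3504, 4884, 5536 and 5043 in Control cell replicates 1 to 5. T-C cell replicates 3 and 4 again had the lowest and the highest intensity of the 10. After normalization the highest level was on Control cell replicate 4 (12.47). The normalized level was 12.08 ± 0.25 on T-C cell arrays and 12.23 ± 0.21 on Control cell arrays (SD, n = 5 each), with a log2 difference of −0.15 (SE 0.16, 95% interval −0.50 to 0.20, limma adjusted p = 0.717). The ratio was 0.900, with an interval from 0.706 to 1.15.

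mmu-miR-24-3p, the shared product of both clusters, had intensities of 5394, 6692, 8089, 9174 and 3959.8 in T-C cell replicates 1 to 5, against 8276, 5632, 7330.3, 6629 and 5986 in Control cell replicates 1 to 5. T-C cell replicate 5 was the dimmest and T-C cell replicate 4 the brightest, so the T-C cell group again spanned the Control cell values. The normalized level was 12.59 ± 0.39 on T-C cell arrays and 12.67 ± 0.18 on Control cell arrays (SD, n = 5 each), with a log2 difference of −0.08 (SE 0.19, 95% interval −0.50 to 0.34, limma adjusted p = 0.883). The ratio was 0.947, with an interval from 0.709 to 1.26.

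In all, 0 of 5 members passed an adjusted p of 0.05 and 0 of 5 an unadjusted p of 0.05 by limma, where 7.77% of the 476 miRNAs tested passed the adjusted threshold (1.47% with a positive and 6.3% with a negative difference, 7 and 30 miRNAs, against 14 and 33 under quantile normalization) and 18.3% the unadjusted one. The groups overlapped for 5 of 5 members, while 3.78% of the tested miRNAs had groups that did not overlap. The median member differed by −0.14, against 0.02 for the median of all tested miRNAs, and the median size of the difference, sign left aside, was 0.14 for the members and 0.17 for all. The difference was negative in 5 of 5 members and in 47.1% of all tested miRNAs, and since each paralog pair moved together across arrays, the 5 signs are not independent. Without T-C cell replicate 1, on which all 5 members lay below their mean over the arrays, the differences were −0.014 for miR-23a-3p, −0.024 for miR-23b-3p, −0.10 for miR-27a-3p, −0.060 for miR-27b-3p and 0.050 for miR-24-3p. Precision is limited by having 5 arrays per group, and a p above the threshold does not show that the groups are alike.

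**Figure D2:**
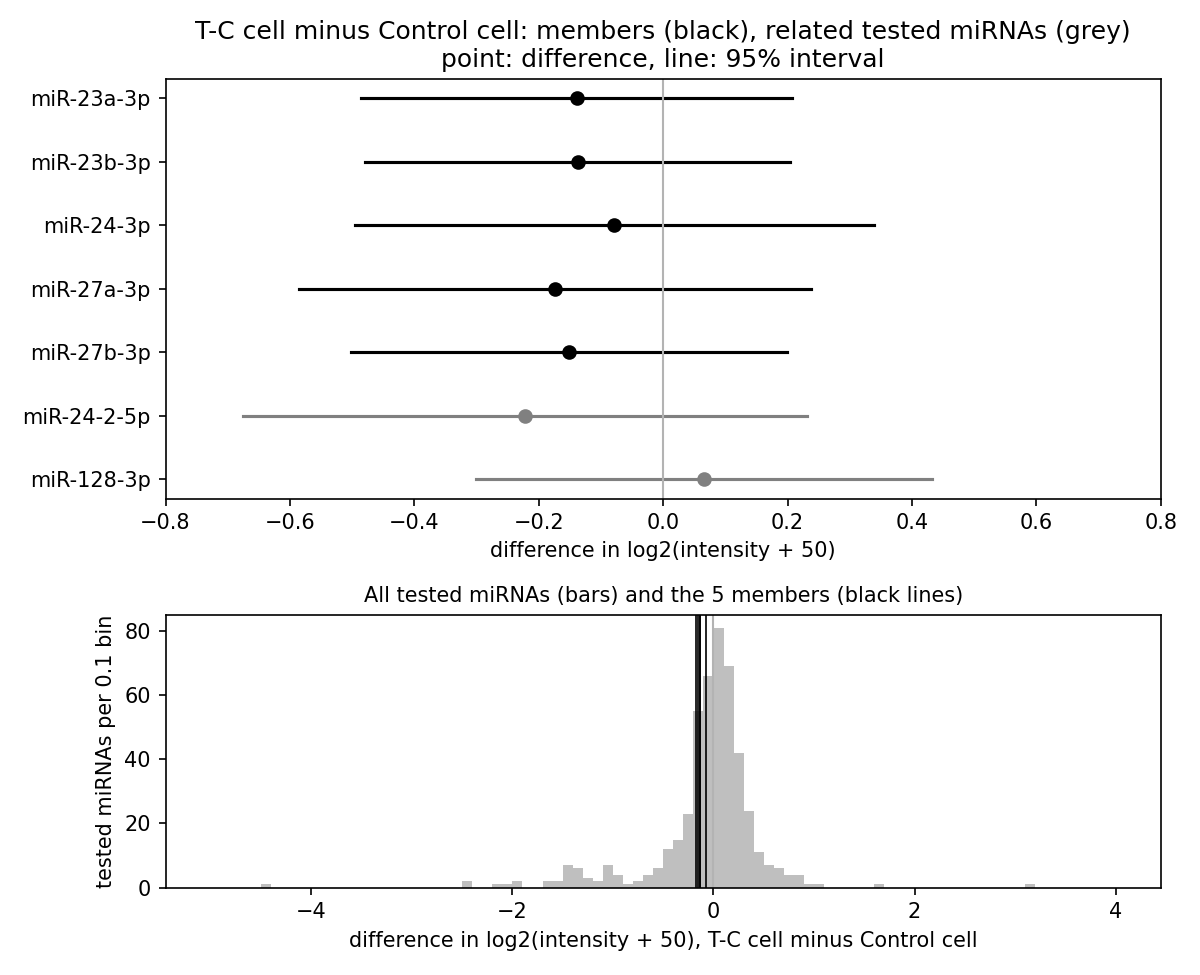
Upper panel: difference in log2(intensity + 50), T-C cell minus Control cell, with its 95% limma interval, for the 5 members (black) and for miR-24-2-5p and miR-128-3p (grey); every interval includes 0. Lower panel: number of the 476 tested miRNAs per bin of 0.1 in that difference, with the members, between −0.17 and −0.08, as black lines.

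To compare the paralogs on the same array, the level of each chromosome 13 paralog was subtracted from that of its chromosome 8 paralog. For the miR-23 pair this log2 difference was −0.036, −0.0070, 0.103, −0.0097 and −0.020 in T-C cell replicates 1 to 5, against 0.027, −0.0044, 0.028, −0.012 and −0.0021 in Control cell replicates 1 to 5. All but T-C cell replicate 3 lay within 0.04 of 0, so the pair gave nearly the same brightness on each array. The mean was 0.0062 ± 0.055 on T-C cell arrays and 0.0073 ± 0.019 on Control cell arrays (SD, n = 5 each). The change in this balance was −0.0012 (95% interval from the inverted permutation test −0.047 to 0.056, exact two-sided permutation p = 0.960, adjusted p = 0.960 over the 2 pairs). On the linear scale that interval is a ratio of 0.968 to 1.04. It is a ratio of probe signals, and signal shared between the 2 probes was not measured. Without T-C cell replicate 3 the change was −0.026 (exact two-sided permutation adjusted p = 0.143). Under quantile normalization the change was −0.063 (exact two-sided permutation adjusted p = 0.492), below the lower end of the interval of −0.047 to 0.056. Median centring and no normalization each gave −0.0014. The interval therefore does not cover the choice of normalization.

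For the miR-27 pair the log2 difference was −0.35, −0.39, −0.51, −0.12 and −0.62 in T-C cell replicates 1 to 5, against −0.55, −0.41, −0.35, −0.33 and −0.24 in Control cell replicates 1 to 5. miR-27b-3p was thus the brighter paralog on all 10 arrays, and the T-C cell values spanned the Control cell values. The mean was −0.40 ± 0.19 on T-C cell arrays and −0.38 ± 0.12 on Control cell arrays (SD, n = 5 each). The change in the balance was −0.022 (95% interval from the inverted permutation test −0.27 to 0.22, exact two-sided permutation p = 0.833, adjusted p = 0.960 over the 2 pairs), a ratio between 0.832 and 1.16.

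**Figure D3:**
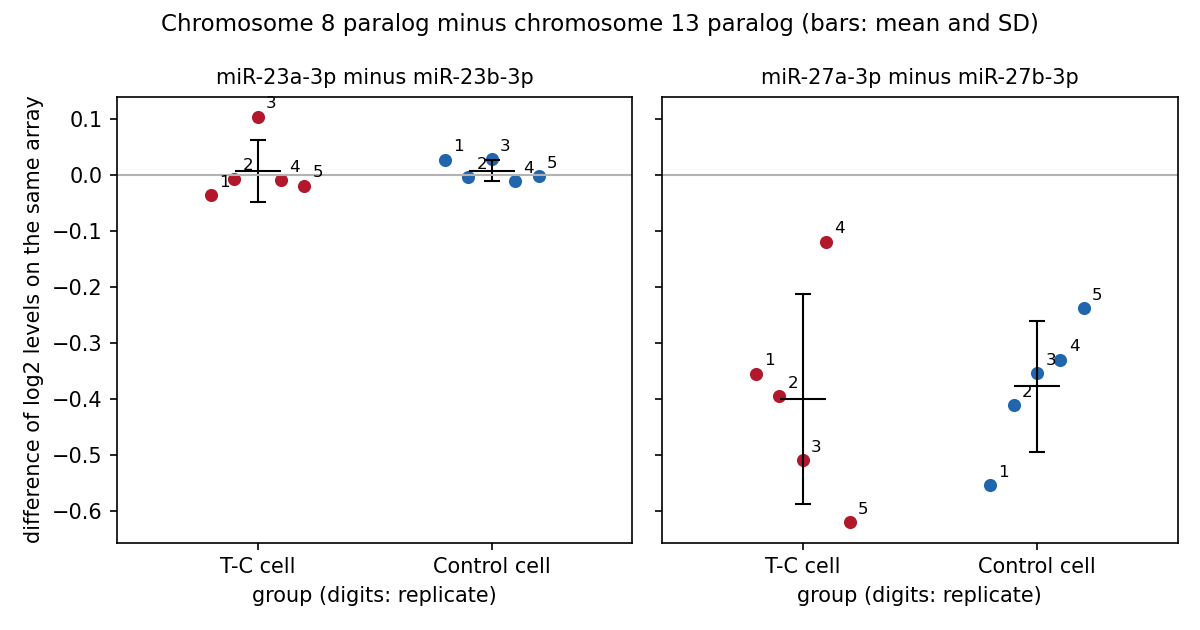
Chromosome 8 paralog minus chromosome 13 paralog on the same array, in log2 units, for the miR-23 pair (left) and the miR-27 pair (right); points are arrays with their replicate number, T-C cell left of Control cell, and bars are mean and SD (n = 5). The miR-23 pair stays near 0 apart from T-C cell replicate 3 at 0.103, and all miR-27 values are below 0.

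The probes of a pair face targets that differ at 1 base of 21, the third from the 3′ end, and signal shared between them was not measured. As a description of such probes on this array, chosen after the values were seen, 28 pairs of tested miRNAs have equal length and differ at 1 base. The mean size of the within-array log2 difference was 0.025 for the miR-23 pair, the smallest of the 28, and 0.39 for the miR-27 pair, the fourteenth. In the other 26 pairs it ranged from 0.064 (miR-103-3p and miR-107-3p) to 2.48 (let-7a-5p and let-7e-5p), with a median of 0.51. The base that differs lies elsewhere in many of these pairs, so they are no matched set.

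Among the members, profiles across arrays were most alike within a seed. With group means removed, Pearson's r over the 10 arrays was 0.983 between miR-23a-3p and miR-23b-3p and 0.856 between miR-27a-3p and miR-27b-3p. Between products of the same cluster it was lower: 0.281 for miR-23a-3p and miR-27a-3p and 0.411 for miR-23b-3p and miR-27b-3p. miR-24-3p had r of 0.292 with miR-23a-3p, 0.142 with miR-23b-3p, −0.043 with miR-27a-3p and −0.040 with miR-27b-3p. These r describe 10 arrays whose points share hybridization and scanning, and the near-identical sequences of a pair may share signal, which was not tested. A single array can weigh heavily on such an r. On T-C cell replicate 3 miR-24-3p stood at 0.51 and miR-27a-3p at −0.50 relative to their means over the arrays. No r was computed without that array, so the low r between seeds does not describe the other arrays taken alone.

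The members parted on T-C cell replicate 3. On that array miR-24-3p stood 0.51 log2 units above its mean over the 10 arrays, miR-27a-3p stood at −0.50 and miR-27b-3p at −0.38, while miR-23a-3p and miR-23b-3p stood at 0.13 and 0.034. The normalized level of miR-24-3p there exceeded that of miR-27a-3p by 1.88 log2 units, while over all arrays the gap averaged 0.91 ± 0.54 in the T-C cell group and 0.82 ± 0.29 in the Control cell group (SD, n = 5 each). T-C cell replicate 3 also had the highest limit of detection, 474, and a blank SD of 83.4, where the other arrays had 3.01 to 30.8, and the part of this in the pattern was not tested. Without that array the difference of miR-24-3p was −0.23 (limma adjusted p = 0.580). On T-C cell replicate 1 all 5 members were low, at −0.40 to −0.27, and on Control cell replicate 4 all were above their means, at 0.076 for miR-24-3p and 0.32 to 0.51 for the others.

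**Figure D4:**
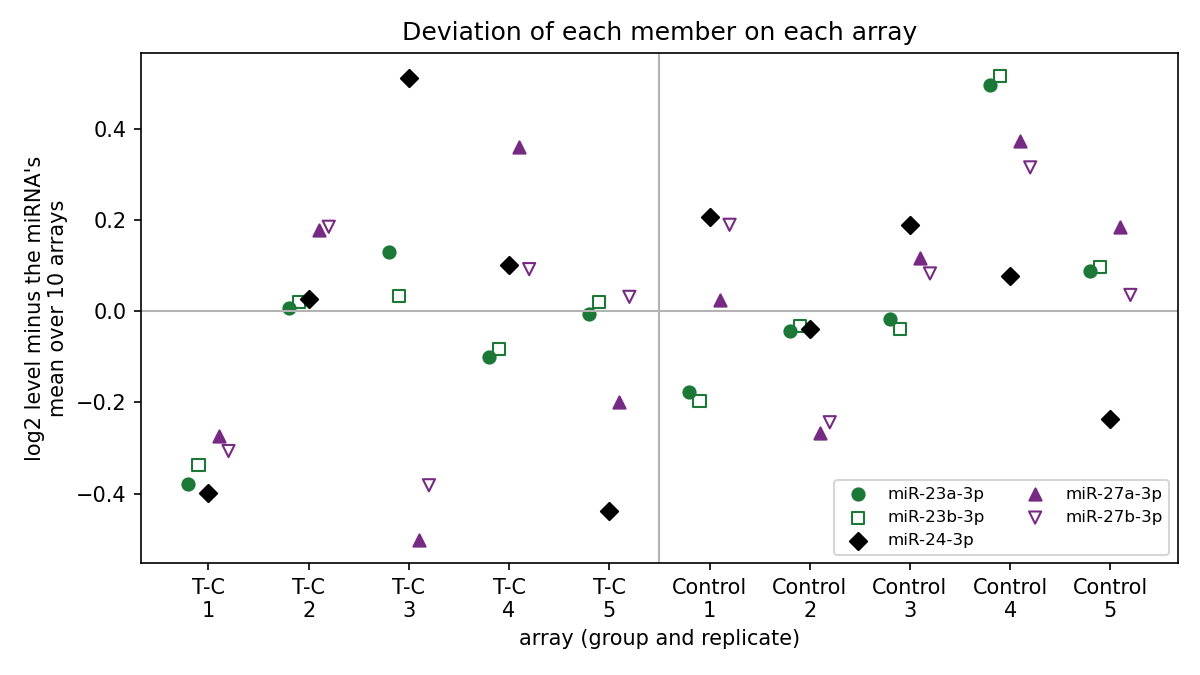
Level of each member minus its own mean over the 10 arrays, in log2 units, with T-C cell arrays left and Control cell arrays right; colours mark the seed (green miR-23, purple miR-27, black miR-24), filled and open symbols the paralogs. The miR-23 symbols lie close together on each array, and on T-C cell replicate 3 miR-24-3p is at 0.51 and miR-27a-3p at −0.50.

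Outside the 5 members, the tested miRNAs with the most similar profiles, again with group means removed and 10 arrays, also differed between the seeds. With members included, each miR-23 paralog ranked first for the other, and each miR-27 paralog ranked second for the other, behind miR-378d. For miR-23a-3p they were miR-26a-5p (r = 0.860), let-7a-1-3p (0.855) and miR-125b-5p (0.837), and for miR-23b-3p they were miR-125b-5p (0.809), miR-1a-3p (0.801) and miR-26a-5p (0.797). For miR-27a-3p they were miR-378d (0.920), miR-30e-3p (0.854) and miR-9-5p (0.847), and for miR-27b-3p they were miR-378d (0.896), miR-30e-3p (0.8005) and miR-148b-3p (0.798). For miR-24-3p they were miR-192-3p (0.981), miR-497-5p (0.934) and miR-3535 (0.926). These are the highest among 475 r values per member and were not tested. miR-9-5p was above the limit of detection on only 5 arrays, let-7a-1-3p on 8 and miR-378d on 9. miR-192-3p was above it on 10 but dim, with mean intensities of 380 on T-C cell and 335 on Control cell arrays. With group means kept, these r ranged from 0.4475 (miR-125b-5p with miR-23b-3p) to 0.973 (miR-192-3p with miR-24-3p).

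Other products of the same loci gave the only view of miR-24 by cluster. The 5p arms of the miR-24 hairpins differ between chromosomes, and their sequences are shown, seed in capitals, because they alone separate Mir24-2 from Mir24-1.
miR-24-2-5p (chromosome 8): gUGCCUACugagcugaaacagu
miR-24-1-5p (chromosome 13): gUGCCUACugagcugauaucagu
They share their first 16 bases. miR-24-2-5p had intensities of 190.2, 286, 334, 449 and 266 in T-C cell replicates 1 to 5, against 292, 344, 389, 326 and 222.9 in Control cell replicates 1 to 5, above the limit on 4 of 5 T-C cell and 5 of 5 Control cell arrays. miR-24-1-5p ranged from 89.1 to 265 on T-C cell arrays and from 68.0 to 205 on Control cell arrays, above the limit on 0 of 5 T-C cell and 1 of 5 Control cell arrays. The 5p arm from chromosome 8 was therefore detected on 9 arrays and that from chromosome 13 on 1 (Control cell replicate 5, where the limit was lowest). Differences in how well each probe binds were not measured, so this gives no ratio of the hairpins.

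miR-24-2-5p had a normalized level of 8.40 ± 0.48 on T-C cell arrays and 8.62 ± 0.13 on Control cell arrays (SD, n = 5 each) and a log2 difference of −0.22 (SE 0.21, 95% interval −0.68 to 0.23, limma adjusted p = 0.678). Its lowest level, 7.62, was on T-C cell replicate 1, and leaving that array out the difference of miR-24-2-5p was −0.0085 (limma adjusted p = 0.991). The other 8 of 9 listed products, which include the miR-3074 miRNAs read from the opposite strand of the miR-24 hairpins, were above the limit on 0 to 2 arrays each and were not tested.

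Among miRNAs with related seeds, 5 others on the array share the miR-24 seed (miR-6410, miR-6413, miR-6361, miR-6369 and miR-5124b), and each exceeded the limit on at most 1 array. No other miRNA on the array has the seed of miR-23 or of miR-27. miR-128-3p, a miRNA best known from the brain, carries the run UCACAGUG at its first base, where both miR-27 members carry it from base 2.
miR-128-3p: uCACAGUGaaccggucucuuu
Its seed is again in capitals. miR-128-3p had intensities of 382, 285, 498, 415 and 327 in T-C cell replicates 1 to 5, against 303, 386, 377, 318 and 222 in Control cell replicates 1 to 5, and the groups overlapped. The log2 difference was 0.07 (SE 0.17, 95% interval −0.30 to 0.43, limma adjusted p = 0.889), so this relative did not pass the test either. Without T-C cell replicate 3 its difference was −0.045, and without Control cell replicate 5 it was −0.0058.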

How the data were processed

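Total RNA (1 µg) was given a poly(A) tail, ligated to a tag and stained with Cy3 by a service provider, per the labels. The deposited values are median spot intensities, per the file headers, with no scaling between arrays, and no label or header states the authors' background treatment or scanner. The series type names sequencing, but the files hold array spots. Each of 10 arrays held 3968 spots, 3784 of them for miRNAs (2 per miRNA) and 16 blank. Intensities were converted to log2(intensity + 50), averaged over the 2 spots and normalized by cyclic loess (limma 3.58.1, R 4.3.3). miRNAs above the limit of detection on at least 5 arrays (476) were compared with limma (two-sided, eBayes trend on), and p-values were adjusted over all of them (Benjamini-Hochberg). Paralog balances were tested with an exact permutation, two-sided, of the 252 splits of 5 against 5 arrays, with intervals from inverting that test. The normalization and limma steps were tested on simulated arrays with independent noise per miRNA and 2 equal spots. Signal shared between probes and correlated profiles were not simulated. The permutation test was run there only on a fixed set of values. Members, lists and tests were chosen with earlier results of these data known. Groups and replicate numbers come from the titles. The text names the members, the tested miRNAs of both lists and, per member, the 3 tested miRNAs outside the members with the highest correlation. Alternatives covered normalization, background, filter, spots, array weights, a replicate block and leaving out arrays.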

Additional observations from a re-analysis of the deposited data

Results flagged for a closer look

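Among 18 sets of 5 arrays examined for a value far from the rest, 2 held such a value, where chance gives about 1 in 20. The miR-23a-3p minus miR-23b-3p difference on T-C cell replicate 3 was 0.103, with the next T-C cell value at −0.0070 and the farthest at −0.036. On that array the limit of detection was 474, the highest of the 10, and its part in the value was not tested. The normalized level of miR-24-2-5p on Control cell replicate 5 was 8.40, with the other Control cell arrays between 8.64 and 8.72. That array had the lowest limit of detection, 64.0, and its part in the value was not tested either.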

How the results depend on the processing

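No member passed an adjusted p of 0.05 under any of the 24 alternatives run, of which leaving out T-C cell replicates 1 and 3 together and leaving out T-C cell replicate 3 with Control cell replicate 5 were chosen after seeing the data; the lowest limma adjusted p was 0.451. The direction turned in 3 of 24 alternatives for miR-24-3p, among them with the blank mean subtracted (0.012). It turned in 1 of 24 each for miR-27a-3p (0.056) and miR-27b-3p (0.063), without T-C cell replicates 1 and 3. For the miR-23 balance it turned in 7 of 23, among them with the first spot alone (0.0059). For the miR-27 balance it turned in 4 of 23, among them without T-C cell replicate 3 and Control cell replicate 5 (0.041). Leaving out 1 array at a time gave −0.23 (without Control cell replicate 1) to −0.014 for miR-23a-3p and −0.23 (without Control cell replicate 1) to −0.024 for miR-23b-3p, both highest without T-C cell replicate 1. It gave −0.28 (without T-C cell replicate 4) to −0.080 (without T-C cell replicate 3) for miR-27a-3p and −0.24 (without Control cell replicate 2) to −0.060 (without T-C cell replicate 1) for miR-27b-3p. It gave −0.23 to 0.050 for miR-24-3p, −0.026 to 0.0095 for the miR-23 balance and −0.093 to 0.031 for the miR-27 balance. The count of 37 called miRNAs became 3 with the blank mean subtracted, 1 with no filter, 18 with detection required on 10 arrays (9 higher and 9 lower), 22 with the replicate block, and 1 in each of the cases that left out a pair of arrays. Dropping a single array gave 12 calls for T-C cell replicate 1 and 2 for T-C cell replicate 4. Dropping Control cell replicate 1 or 5 gave 3 calls, Control cell replicate 2 or 3 gave 1, and each of the other arrays gave between 28 and 44. With the replicate block the difference of miR-23a-3p was −0.14 (limma adjusted p = 0.782), and no member's call changed. Same-numbered arrays of the groups had correlations of −0.202 to 0.26. These values cannot decide whether the numbers pair the samples, and the labels do not say. With no normalization the median of all tested miRNAs moved to 0.14, and miR-23a-3p lay at −0.29 relative to it. With array weights the differences were −0.015 for miR-23a-3p, −0.0038 for miR-23b-3p, −0.16 for miR-24-3p, −0.088 for miR-27a-3p and −0.068 for miR-27b-3p, and the permutation test had no value. The first spot alone gave, in the same order of members, −0.051, −0.057, −0.038, −0.11 and −0.11. From the second spot alone the differences were larger in size, at −0.19, −0.18, −0.097, −0.23 and −0.18. Also run after seeing the data, miR-24-2-5p ranged from −0.40 to −0.0085, and miR-128-3p, at −0.045 to 0.15 with 1 array left out, turned to −0.017 with the first spot alone and to −0.11 without T-C cell replicate 3 and Control cell replicate 5. The causes of these changes were not tested. Brightness over the limit of detection was lowest for miR-27a-3p on T-C cell replicate 3, at 4.36.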
